A study of Mus musculus with 2 samples.

Results

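The spots described here were those richest in Angptl7, Cilp2 and Tnmd, genes used as markers of tendon and ligament, in spatial transcriptomes of the fractured mouse tibia. They were selected on measured values. Among spots with at least 1000 unique molecular identifiers (UMIs, each a captured probe pair) and under 50000 CPM (the gene's UMIs per 1000000 UMIs) of Col2a1, the main collagen of cartilage, the 300 with the highest summed CPM of the 3 genes were taken over both sections and are called members. They were 300 of 6380 spots under tissue. Of the rest, 460 spots had too few UMIs, 598 were too rich in Col2a1 and 5022 passed both limits and served as the other spots. A spot is a small region that can hold several cell types, so a member is a place and not a cell.

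The tissue is described as a control and an Nf1Postn callus, read here as 1 mouse each, from female littermates 8 weeks old, collected 10 days after a pinned fracture of the distal tibia. The control carried Nf1+/fl and no Postn-cre, and the Nf1Postn mouse was Postn-cre;Nf1flox/-, in which Cre recombinase is driven by the periostin promoter, so the deletion is limited to cells that have used this promoter and all other cells keep 1 floxed allele. Both calluses were fixed in formalin, decalcified in 14% EDTA for about 3 days and embedded together, and 2 sections were measured with Visium probes for fixed tissue. The labels number the sections as biological replicates. Since both calluses are described as embedded together and cut into 2 sections, the sections were taken to hold the same 2 calluses, so every value is given for each callus in each section, intervals are exact 95% intervals that cover counting error only, and no test between genotypes or spots was run. The difference between mice cannot be told apart from the difference between genotypes. The control callus had 1700 spots with a median of 7053 UMIs in section 1 and 1778 spots with 5719 in section 2. The Nf1Postn callus had 1341 spots with 2030 UMIs and 1556 spots with 3240 UMIs.

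Tendon and ligament are ropes of type I collagen laid down by elongated fibroblasts, tendon joining muscle to bone and ligament joining bone to bone. The basic helix-loop-helix factor Scx (scleraxis) marks their progenitors and turns on Tnmd (tenomodulin), a membrane glycoprotein of mature tendon cells, while small leucine-rich proteoglycans such as Fmod (fibromodulin) and pentameric glycoproteins such as Thbs4 and Comp set the spacing and width of the collagen fibrils. Angptl7 is a secreted angiopoietin-like protein and Cilp2 is a secreted protein of cartilage and tendon matrix.

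The promoters of Angptl7 and Tnmd, the markers that differed most between the calluses, and of Thbs4, a tendon gene that the selection did not use, are shown because members held all 3 transcripts in all 4 callus sections (each callus in each section). Each runs from 250 bases before to 50 bases after the gene's start (RefSeq, GRCm38.p6), with the E-box CANNTG, the class of letters read by basic helix-loop-helix factors, in capitals. Angptl7 lies at chr4:148500413-148500712 on the minus strand, Tnmd at chrX:133850758-133851057 on the plus strand and Thbs4 at chr13:92794769-92795068 on the minus strand. CANNTG reads the same class of letters on both strands, so 1 strand was searched.
Angptl7: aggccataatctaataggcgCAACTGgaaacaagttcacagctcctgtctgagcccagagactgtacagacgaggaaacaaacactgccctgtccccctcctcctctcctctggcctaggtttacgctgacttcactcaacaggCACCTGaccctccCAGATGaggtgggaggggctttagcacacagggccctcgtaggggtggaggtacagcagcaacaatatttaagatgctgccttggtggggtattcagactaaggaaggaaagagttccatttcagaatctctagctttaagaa
Tnmd: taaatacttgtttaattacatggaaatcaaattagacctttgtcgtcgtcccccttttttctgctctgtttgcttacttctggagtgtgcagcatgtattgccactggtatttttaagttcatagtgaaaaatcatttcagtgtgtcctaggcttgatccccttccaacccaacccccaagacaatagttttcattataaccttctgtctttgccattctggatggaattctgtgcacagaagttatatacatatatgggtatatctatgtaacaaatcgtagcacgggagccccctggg
Thbs4: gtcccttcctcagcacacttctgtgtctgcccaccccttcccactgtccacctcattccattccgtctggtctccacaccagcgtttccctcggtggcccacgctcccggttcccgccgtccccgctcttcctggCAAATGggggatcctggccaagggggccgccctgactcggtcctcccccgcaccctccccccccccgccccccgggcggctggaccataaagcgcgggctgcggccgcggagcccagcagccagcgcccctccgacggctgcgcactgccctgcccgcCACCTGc
The Angptl7 window held 3 matches, the Thbs4 window 2 and the Tnmd window 0. Of all 32851 promoters of this length, 72.3% held at least 1 match and 17.6% at least 3. A match describes letters and is not a bound site.

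Members were few in the control callus and many in section 2 of the Nf1Postn callus. They made up 2.11% of the spots that passed both limits in section 1 of the control (27 of 1278; 1.40% to 3.06%) and 2.87% in section 2 (43 of 1500; 2.08% to 3.84%). In the Nf1Postn callus they made up 4.53% in section 1 (51 of 1126; 3.39% to 5.91%) and 12.6% in section 2 (178 of 1417; 10.9% to 14.4%). The share was higher in Nf1Postn than in control in both sections, but the 2 Nf1Postn sections differed from each other by more than section 1 of Nf1Postn differed from either control section. Of the 299 members with a genotype, 229 (76.6%; 71.4% to 81.3%) lay in the Nf1Postn callus, and 1 member had none. The selection favors shallow spots, since 1 UMI in a spot with 1000 UMIs is already 1000 CPM. Members had a median of 5103 and 7049 UMIs in control and 1614 and 2809 in Nf1Postn, and after each spot was thinned to 1000 UMIs the shares were 2.66%, 4.28%, 4.26% and 10.8% in control sections 1 and 2 and Nf1Postn sections 1 and 2. At equal depth the interval of section 1 of the Nf1Postn callus (3.16% to 5.61%) overlapped those of both control sections (1.85% to 3.70% and 3.31% to 5.44%). The interval of section 2 of the Nf1Postn callus (9.24% to 12.5%) lay above both.

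The summed CPM of the 3 markers ran from 10066 down to 949 in members. The last members stood at 951, 951 and 949 CPM and the first spots outside at 947, 943 and 942 CPM, so the border cuts a continuous range. A member held a median of 7 marker UMIs (1 to 35), and 52 members (17.3%), 40 in Nf1Postn and 11 in control, rested on fewer than 3. All 3 markers were seen in 93 members, Angptl7 and Cilp2 together in 194, and a lone marker in 50. The markers were unequally concentrated in the members, which held 49.8% of all Angptl7 UMIs (899), 36.1% of Cilp2 (881) and 17.9% of Tnmd (526), whereas 75% of Tnmd UMIs lay in other spots.

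**Figure D1:**
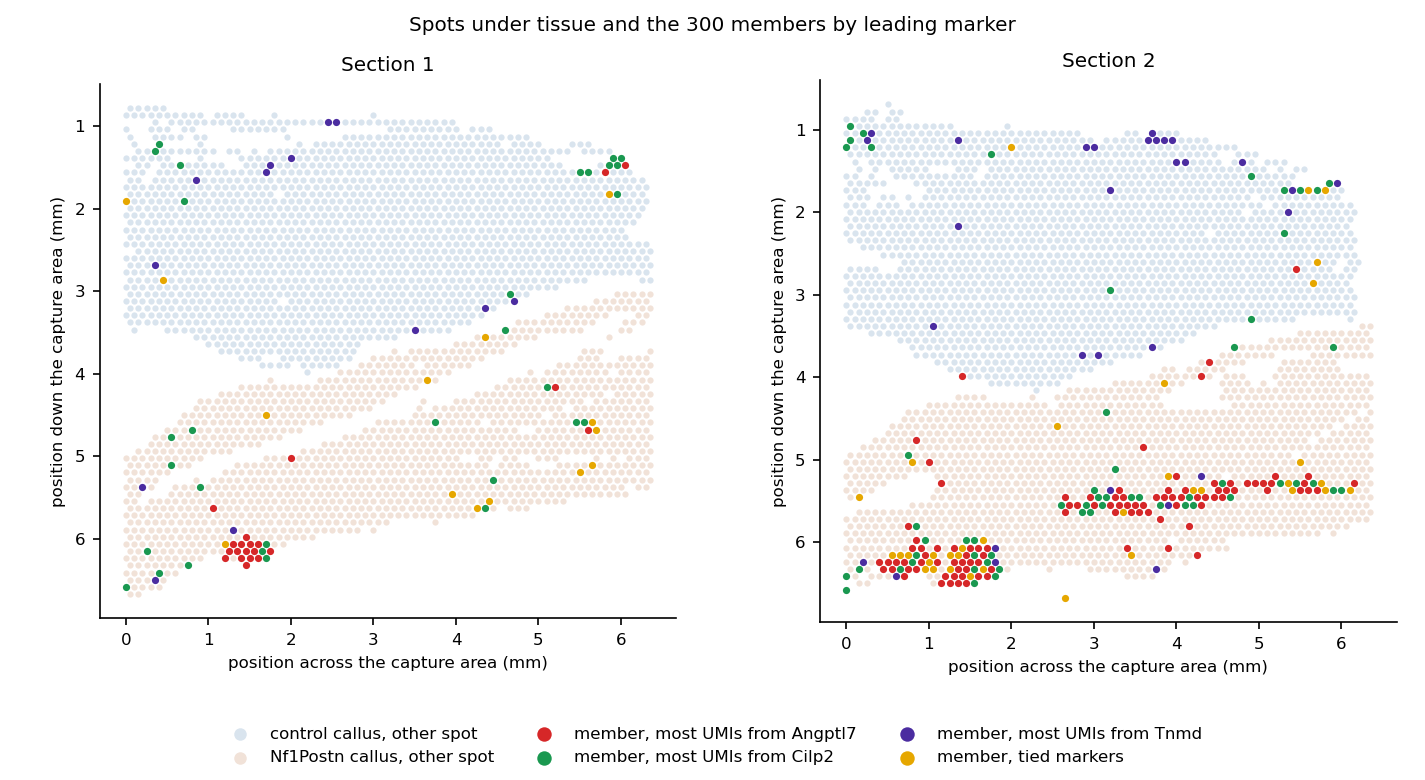
Every spot under tissue in the 2 sections, placed by its position on the capture area in mm, with the control callus in pale blue, the Nf1Postn callus in pale orange and the 300 members colored by the marker with the most UMIs. Members form bands in section 2 of the Nf1Postn callus and are scattered along the border of the control callus, where Tnmd leads more of them.

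Members lay next to each other. Of the touching spots around a member that passed both limits, 47.8% were members themselves, against 5.62% of all such spots and 3.13% of the spots around other spots. This share was 23.1% and 17.1% in sections 1 and 2 of the control and 38.2% and 60.0% in sections 1 and 2 of the Nf1Postn callus. The members formed 100 patches of touching spots, of which 72 were lone spots and 6 held at least 10 spots. All 6 lay in the Nf1Postn callus, 5 of them in section 2, and held 165 members (55%). The largest had 40 spots in Nf1Postn and 8 in control. In both sections a patch lay at the lower left of the Nf1Postn callus, and in section 2 a pair of long bands crossed the middle, as the map of the spots shows.

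The large patches differed in what else they held. The patch of 28 spots in section 2 had 2156 CPM of Angptl7, 3750 CPM of Chad and 7863 CPM of Comp with 27310 CPM of summed muscle genes, while a band of 22 spots in the same section had 1203 CPM of Angptl7, 1025 CPM of Chad and 1937 CPM of Comp with 172518 CPM of muscle genes. The patch of 19 spots in section 1 stood with the first (2542 CPM of Angptl7, 4075 CPM of Chad, 5991 CPM of Comp and 50815 CPM of muscle genes). The largest control patch, of 8 spots, had 330 CPM of Angptl7, 4006 CPM of Chad, 7171 CPM of Comp and 8655 CPM of muscle genes. Of the 8 largest patches, the 4 with the least muscle RNA had the most Chad and Comp, and the part of muscle RNA in this was not tested.

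Genes of tendon matrix that played no part in the selection were also higher in members. Each gene's pooled CPM in members was divided by that in the other spots of the same callus and section, and of 2249 genes with at least 100 UMIs in members, 10 (0.445%) were at least 2-fold higher in all 4 callus sections and 0 (0%) were at least 2-fold lower in all 4. The 10 were the 3 markers themselves and Chad, Myoc, Thbs4, Fmod, Aff3, Prelp and Scx. The minimum was set on members, so a gene high in members passed it more easily. With the minimum set instead at the level of the other spots, a check added after seeing the data, 2304 genes were tested and 4 were higher (Chad, Thbs4, Fmod and Prelp) and 0 lower. Myoc, Aff3 and Scx were tested only through their level in members, since at that of the other spots they would have had 53.5, 59.0 and 75.0 UMIs. By the median of the 4 ratios, 31 genes were at least 2-fold higher and 8 at least 2-fold lower, and the median over all genes tested was 0.02 on the log2 scale.

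Thbs4, a thrombospondin of tendon and its junction with muscle (chr13:92888098-92931327, mm39), had the most UMIs of the 7. It reached 2883 CPM in section 1 and 3170 CPM in section 2 of the control members and 1981 CPM and 2990 CPM in the Nf1Postn members, against 431, 629, 360 and 510 CPM in the other spots in the same order. All 4 values of members lay above all 4 of other spots, with log2 ratios of 2.33 to 2.74. Chad, chondroadherin, a leucine-rich protein that binds collagen and integrins in cartilage and tendon (chr11:94455873-94459954), had the largest median ratio of the 7. Its members stood at 1578 and 1226 CPM in control sections 1 and 2 and at 1465 and 1568 CPM in Nf1Postn sections 1 and 2, and the other spots at 135 to 195 CPM. The log2 ratios were 2.65 to 3.44, and neither genotype stood above the other.

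Fmod, which binds collagen I and limits the width of its fibrils (chr1:133964992-133976016), was at 1908 and 1720 CPM in control members and at 1568 and 2099 CPM in Nf1Postn members, sections 1 and 2, against 386 to 570 CPM in other spots. Prelp, a related proteoglycan that anchors basement membranes to collagen (chr1:133838042-133849153), was at 1040 and 821 CPM in control and 815 and 558 CPM in Nf1Postn members, against 180 to 354 CPM. The ranges of members and other spots did not overlap for either gene. Scx (chr15:76341652-76343659) was low throughout, at 165 CPM (105 to 248) and 158 CPM (120 to 205) in control members and 165 CPM (94.4 to 268) and 140 CPM (111 to 174) in Nf1Postn members, from 176 UMIs in all. The other spots stood at 48.5 to 71.6 CPM, and the log2 ratios were 1.14 to 1.53. Myoc, myocilin, a secreted glycoprotein also made by tendon and sclera (chr1:162466724-162477263), was at 588, 438, 206 and 392 CPM in control sections 1 and 2 and Nf1Postn sections 1 and 2, against 31.2 to 62.6 CPM. Aff3, a nuclear elongation factor subunit, was at 172, 153, 103 and 124 CPM in that order from 160 UMIs, against 33.2 to 62.0 CPM.

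Further genes were at least 2-fold higher by the median of the 4 ratios without reaching 2-fold in each. Lbp, a lipopolysaccharide-binding protein, was at 581 and 247 CPM in control members and 186 and 159 CPM in Nf1Postn members, sections 1 and 2, against 60.4 to 159 CPM in other spots. Itgbl1, an integrin beta-like secreted protein, was at 559, 779, 557 and 485 CPM in the same order, against 224 to 371 CPM, so its members lay above all other spots in level. Abi3bp, Igfbp6, Ecrg4, C1qtnf2, Nbl1, Crispld2 and Apod, mostly secreted proteins, also had 4 ratios above 0. Clu and Spock2, a testican proteoglycan, were different: Clu was at 50.2 and 61.0 CPM in control members and 279 and 344 CPM in Nf1Postn members, with 51.3 to 67.2 CPM in the other spots. Spock2 was at 28.7, 49.9, 92.9 and 134 CPM in the same order, against 24.7 to 31.5 CPM. Both were high in the Nf1Postn members, but their UMIs were too few for the comparison of genotypes. Both also passed the minimum of UMIs only through their level in members. Nf1Postn members of section 2 held 197 of the 253 member UMIs of Clu and 77 of the 108 of Spock2.

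**Figure D2:**
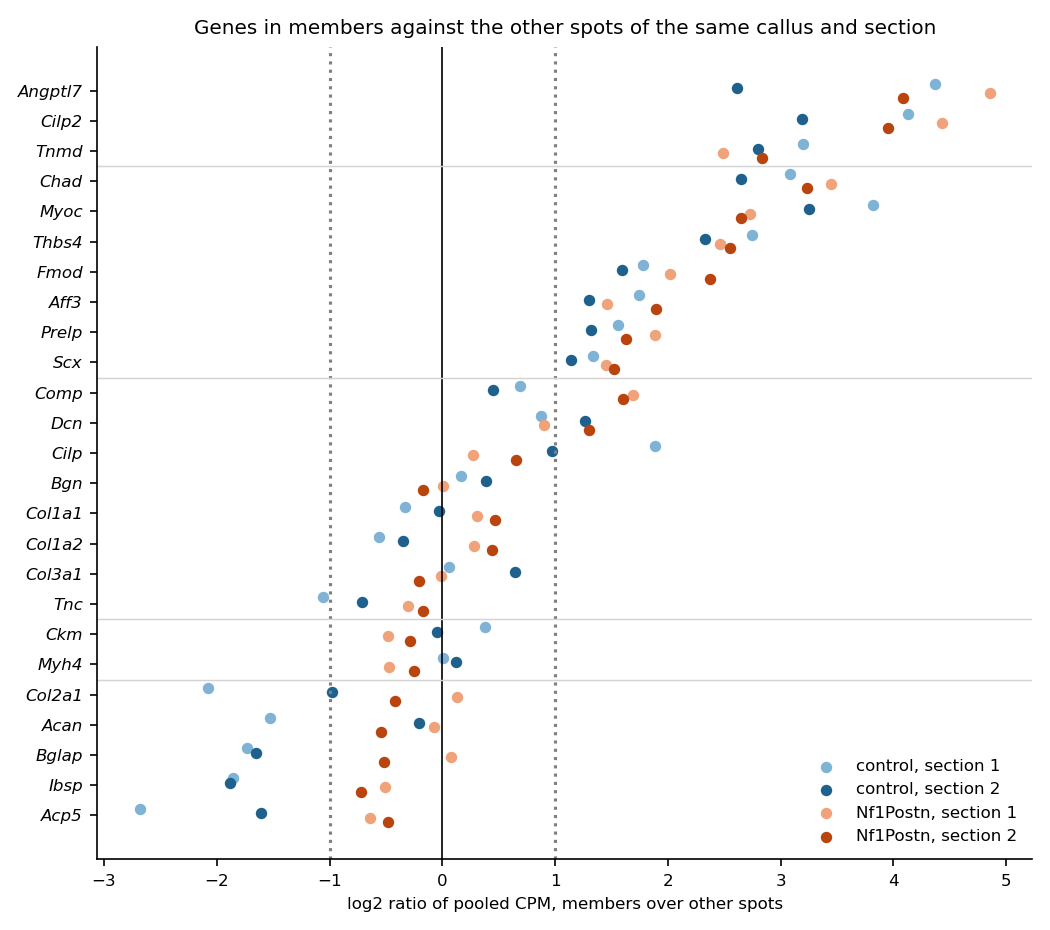
Log2 ratio of pooled CPM in members over the other spots for 25 genes, with a point for each callus and section. Dotted lines mark 2-fold, and gray lines part the 3 markers, the 7 further genes higher in all 4 callus sections, other matrix genes, muscle genes, and cartilage, bone and osteoclast genes.

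The tendon and ligament matrix list showed how far the difference went. Of its 10 genes 8 were tested, and 4 (Chad, Thbs4, Fmod and Prelp) were at least 2-fold higher in all 4 callus sections, against 0.445% of all genes. Its summed level was 14258 and 12282 CPM in control members and 11360 and 11482 CPM in Nf1Postn members, sections 1 and 2, against 6255 and 5800 CPM in other control spots and 3564 and 3036 CPM in other Nf1Postn spots. The summed log2 ratio was 1.19 and 1.08 in control and 1.67 and 1.92 in Nf1Postn, the lower control ratio standing beside a higher level in the other control spots. Comp, cartilage oligomeric matrix protein and the most abundant gene of the list, gave 30.6% of its UMIs. It was at 5271, 3575, 4323 and 3266 CPM in control sections 1 and 2 and Nf1Postn sections 1 and 2, with log2 ratios of 0.69, 0.45, 1.69 and 1.61. The other control spots held 3267 and 2623 CPM and the other Nf1Postn spots 1338 and 1073 CPM, and cartilage makes Comp too. Cilp, a cartilage and tendon matrix protein, and Mfap4, a microfibril protein, had ratios of 0.27 to 1.89 and 0.74 to 1.42, and Tnc, tenascin-C, a matrix glycoprotein of wounds and tendon, had ratios below 0 in all 4 callus sections (-1.06 to -0.17). Of 299 members with a genotype, 215 (71.9%) exceeded the 90th percentile of the other spots of their callus and section for the summed list. The share was 59.3% and 58.1% in control sections 1 and 2 and 60.8% and 80.3% in Nf1Postn sections 1 and 2. Section 2 of the Nf1Postn callus gave 143 of the 215, so the pooled share leans on it.

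Of the small leucine-rich proteoglycans 8 of 12 were tested. Chad, Fmod and Prelp, shared with the list above, were the 3 counted, against 0.445% of all tested genes. Decorin (Dcn), which coats collagen fibrils, was at 875, 1337, 908 and 918 CPM in control sections 1 and 2 and Nf1Postn sections 1 and 2, against 372 to 556 CPM in other spots, and Bgn, its close relative, had log2 ratios of -0.17 to 0.39. The 10 fibrous collagens were all tested and 0 were counted, which the share of 0.445% over all tested genes would also give. Col1a1, a chain of type I collagen, was at 31240.5 and 38684 CPM in control members and 29778 and 22223.5 CPM in Nf1Postn members, with ratios of -0.33, -0.03, 0.31 and 0.46, so type I collagen, the bulk of tendon, did not set members apart from the callus around them. Of the 6 tendon transcription factors, Scx and Egr1 were tested. Egr1, an immediate early factor, had ratios of 0.18 to 0.98, and Mkx (mohawk), with 69 UMIs in members, and Six2, with 47, fell under the minimum at median ratios of 1.82 and 1.58. Prg4, lubricin, the lubricant of joints and tendon sheaths, had 72 UMIs and was at 64.5, 22.2, 72.2 and 83.7 CPM in control sections 1 and 2 and Nf1Postn sections 1 and 2, against 45.3, 1.54, 5.87 and 5.21 CPM in other spots. The summed synovium and tendon sheath list, which holds Prg4, had log2 ratios of 1.01, 0.40, -0.03 and 0.34 in the same order. Its 1 tested gene, Tppp3, had 1.16, 0.21, -0.24 and 0.18.

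The summed lists of bone, osteoclasts and cartilage had ratios below 0 in control and nearer to 0 in Nf1Postn of the same section. Of their 5, 3 and 8 tested genes 0 were counted. The shares over all tested genes (0.445% higher and 0% lower) would also give this. The summed bone list had log2 ratios of -1.79 and -1.56 in control and -0.02 and -0.51 in Nf1Postn, sections 1 and 2. The summed osteoclast list had -2.05 and -1.25 in control and -0.29 and -0.24 in Nf1Postn. The summed cartilage list, whose main gene Col2a1 the selection limited, had -1.75, -0.85, 0.07 and -0.27, though single genes of it in section 2 ran the other way, such as Acan, aggrecan, with -0.21 in control and -0.54 in Nf1Postn. Ibsp, bone sialoprotein, was at 194 and 141 CPM in control and 206 and 133 CPM in Nf1Postn members, against 702, 523, 294 and 218 CPM in other spots. Acp5, tartrate-resistant acid phosphatase of osteoclasts, was at 481, 749, 660 and 288 CPM in members and 3082, 2288, 1031 and 403 CPM in other spots, in the order of control sections 1 and 2 and Nf1Postn sections 1 and 2. The members of the 2 genotypes overlapped in both genes, and the other spots were higher in control.

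Muscle RNA was present in the members of both calluses and abundant in Nf1Postn. The 10 skeletal muscle genes summed to 27604 and 26863 CPM in control members and to 50961 and 108616 CPM in Nf1Postn members, sections 1 and 2, led by Myh4, a fast myosin heavy chain with 22.2% of the list's UMIs. The other spots had 17803, 26063, 69518 and 126990 CPM in the same order, so the log2 ratio was 0.63 and 0.04 in control and -0.45 and -0.23 in Nf1Postn. In 7 members (2.34%) the list exceeded the 90th percentile of other spots. When members and other spots were both limited to those under 20000 CPM of muscle genes, 63 members and 2151 other spots remained. Beside the 3 markers, whose ratios the selection fixed, Chad and Prelp were again at least 2-fold higher in all 4 callus sections, as was Myoc, which passed the minimum only through its level in members. Ccn3 was so there too, and Mmp9, a gelatinase of osteoclasts and neutrophils, was at least 2-fold lower. Thbs4 had ratios of 2.78, 2.61, 0.67 and 2.61 and Fmod 1.89, 1.75, 0.68 and 0.89 in control sections 1 and 2 and Nf1Postn sections 1 and 2, so Thbs4 was under 2-fold in section 1 of the Nf1Postn callus and Fmod in both of its sections. Aff3 and Scx had too few UMIs there to be counted. In spots, fewer cells of a type and less RNA per cell cannot be told apart.

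The remaining lists had no counted genes in members against other spots. The shares over all tested genes (0.445% higher and 0% lower) would also give such counts. Counts of 0 were found among 7 tested collagen crosslinking genes, 7 elastic fiber genes, 7 TGF-β genes, 6 injury response genes, 7 genes of loose connective tissue fibroblasts, 2 ERK feedback genes, 2 nerve genes, 2 myeloid genes and 2 erythroid genes. The hypertrophic cartilage, synovium and tendon sheath, myotendinous junction, adipocyte and endothelium lists had 1 tested gene each and 0 counted, and the GDF and BMP, perineurium and Nf1 lists had 0 tested. Col22a1, a collagen of the junction of muscle and tendon, had log2 ratios of -0.54 and -0.32 in control and 0.01 and 1.54 in Nf1Postn. Ccn2, a target of TGF-β, had ratios above 0 in all 4 callus sections (0.64 to 1.55). Tgfb1 of the same list had ratios below 0 in all 4 (-1.25 to -0.37). The summed TGF-β list had 0.11 and 0.16 in control and 0.29 and 0.36 in Nf1Postn. The summed myeloid list had ratios of 0.27 and -0.37 in control and -0.38 and -0.10 in Nf1Postn, while Mrc1, a receptor of resident macrophages and its most abundant gene, had 0.53 to 0.75.

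Thbs4 was lower at each distance than in the members. Comp was lower near the members but, in 3 of 4 callus sections, not at 5 or more steps. Thbs4 went from 3090 CPM in control members to 1290 CPM in the touching spots, 740 CPM at 2 steps and 328 CPM at 5 or more steps, and in Nf1Postn from 2844 to 854, 498 and 305 CPM. Angptl7 in Nf1Postn went from 1215 to 116, 64.3 and 44.7 CPM, and Tnmd in control from 732 to 213, 109 and 61.9 CPM. Thbs4 stayed above its far level in the touching spots of both calluses. These values pool the sections, and within section 1 the fall of Thbs4 was not steady. It rose from 426 to 587 CPM between 3 and 4 steps in control and from 353 to 381 CPM between 2 and 3 steps in Nf1Postn. For Angptl7 and Tnmd the step from members to neighbors is partly set by the selection. Fmod stood at 699 CPM at 5 or more steps in section 1 of the control, above the 673 CPM of the touching spots. Comp at 5 or more steps was above its level in members in 3 of 4 callus sections, at 7518 against 5271 CPM and 4910 against 3575 CPM in control sections 1 and 2 and at 3368 against 3266 CPM in Nf1Postn section 2, beside 49676, 32091 and 18067 CPM of Col2a1.

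**Figure D3:**
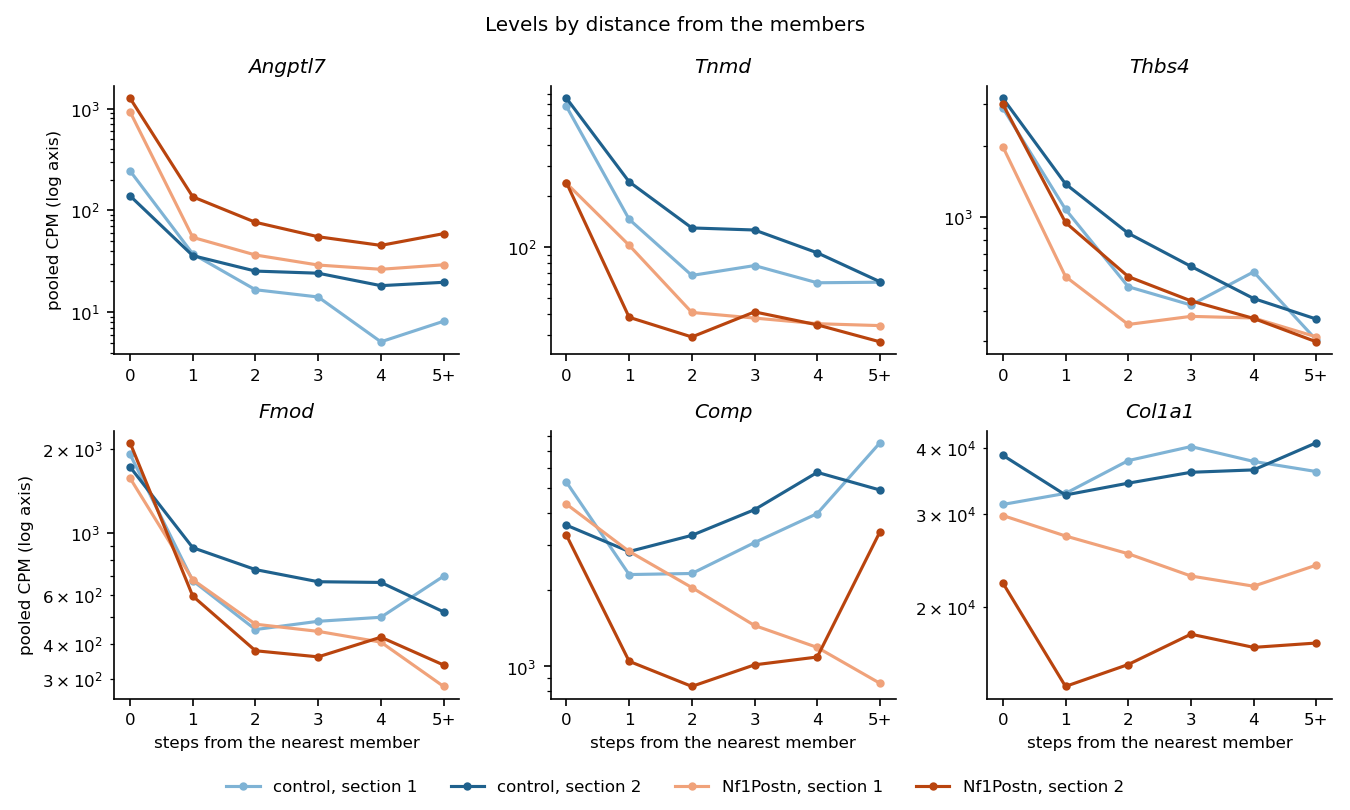
Pooled CPM of 6 genes on a log axis against the number of steps on the spot grid from the nearest member (0 is the members, 5+ is 5 or more steps), with a line for each callus and section and spots over the Col2a1 limit included. Thbs4 falls in each line from 0 to 2 steps, while Comp turns up again far from the members in both control lines and in section 2 of Nf1Postn.

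Members of the 2 calluses differed in which marker they were rich in. Angptl7 was at 244 CPM (169 to 341) and 139 CPM (103 to 183) in control members of sections 1 and 2 and at 929 CPM (747 to 1141) and 1263 CPM (1173 to 1358) in Nf1Postn members. Tnmd ran the other way, at 674 CPM (545 to 825) and 754 CPM (667 to 850) in control and at 237 CPM (150 to 356) and 239 CPM (201 to 283) in Nf1Postn. Cilp2 was at 724 and 472 CPM in control and 846 and 919 CPM in Nf1Postn. These 3 genes chose the members, so their levels are a description. Both differences were also found in the other spots, where the log2 ratio of Nf1Postn over control was 1.45 and 1.72 for Angptl7 and -0.79 and -1.69 for Tnmd, sections 1 and 2, next to 1.93 and 3.19 and to -1.51 and -1.66 in members.

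When each member was assigned to the marker with the most UMIs, 121 were led by Angptl7, 87 by Cilp2, 43 by Tnmd and 49 were tied. Tnmd led 32 of 70 control members (45.7%; 33.7% to 58.1%) and 11 of 229 Nf1Postn members (4.80%; 2.42% to 8.43%). Angptl7 led 4 of 70 control members (5.71%; 1.58% to 14.0%) and 117 of 229 Nf1Postn members (51.1%; 44.4% to 57.7%). Of the 121 led by Angptl7, 100 lay in patches of 10 or more spots and 98 in section 2 of the Nf1Postn callus, so this group is mostly that tissue.

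The groups also differed in tendon genes. Thbs4 was at 2868 CPM (2690 to 3055) in spots led by Angptl7, 2743 CPM (2578 to 2915) in those led by Cilp2 and 3417 CPM (3218 to 3626) in those led by Tnmd, and Scx at 161, 138 and 172 CPM with overlapping intervals. Chad was at 1835, 1913 and 547 CPM, Fmod at 2153, 2173 and 1457 CPM and Myoc at 563, 474 and 253 CPM, and for these 3 genes the interval of the spots led by Tnmd lay below the others. The markers that define the groups also chose the members, and Tnmd led mostly control members, so the group and the genotype are mixed. Among genes with at least 100 UMIs in the group itself, a filter that a gene high in that group passes more easily, those with the largest ratios in spots led by Tnmd were Fbn2, an elastic fiber fibrillin of growing tissue, Sfrp2 and Sfrp1, secreted WNT antagonists, Postn, periostin of the periosteum and wounds, C1qtnf3, Mest, Angptl1 and Col14a1, a collagen of fibril surfaces. Sfrp2 was there at 1782 CPM, against 316 CPM in the spots led by the other 2 markers, at 2031 against 774 CPM within control members and at 186 against 153 CPM within Nf1Postn members. Within Nf1Postn members, where Tnmd led 11 spots, Fbn2 was at 46.4 against 38.1 CPM and Sfrp1 at 23.2 against 55.3 CPM. So few spots show no direction for these 2 genes. Spots led by Cilp2 had Bglap, osteocalcin of osteoblasts (905 against 468 CPM), Dmp1, an osteocyte matrix protein (346 against 195 CPM), Col22a1, Chad, Aqp1, Gpx3, Hbb-bs and Pltp. Chad was higher there within control members (2494 against 596 CPM) and lower within Nf1Postn members (1422 against 1697 CPM). Spots led by Angptl7 had Ckmt2, Myh2, Adssl1, Ckm and Mybph, genes of muscle energy or contraction, and Clu, clusterin, a secreted chaperone. Within the control Angptl7 led 4 members. Ckmt2 was there at 0 against 31.2 CPM, Clu at 0 against 57.9 CPM and Myh2 at 0 against 236 CPM. Ckm was at 2550 against 3372 CPM and Mybph at 131 against 98.1 CPM. With so few spots, a value of 0 does not show that Ckmt2 or Clu was lower. Within Nf1Postn members, where Angptl7 led 117 spots, Ckmt2 was at 321 against 162 CPM, Clu at 415 against 255 CPM and Myh2 at 1095 against 555 CPM. Ckm was there at 19130 against 14085 CPM and Mybph at 474 against 332 CPM. The median muscle list level of all spots led by Angptl7 was 87106 CPM, against 57989 CPM in spots led by Cilp2 and 19921 CPM in those led by Tnmd. The part of muscle RNA in this split was not tested.

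**Figure D4:**
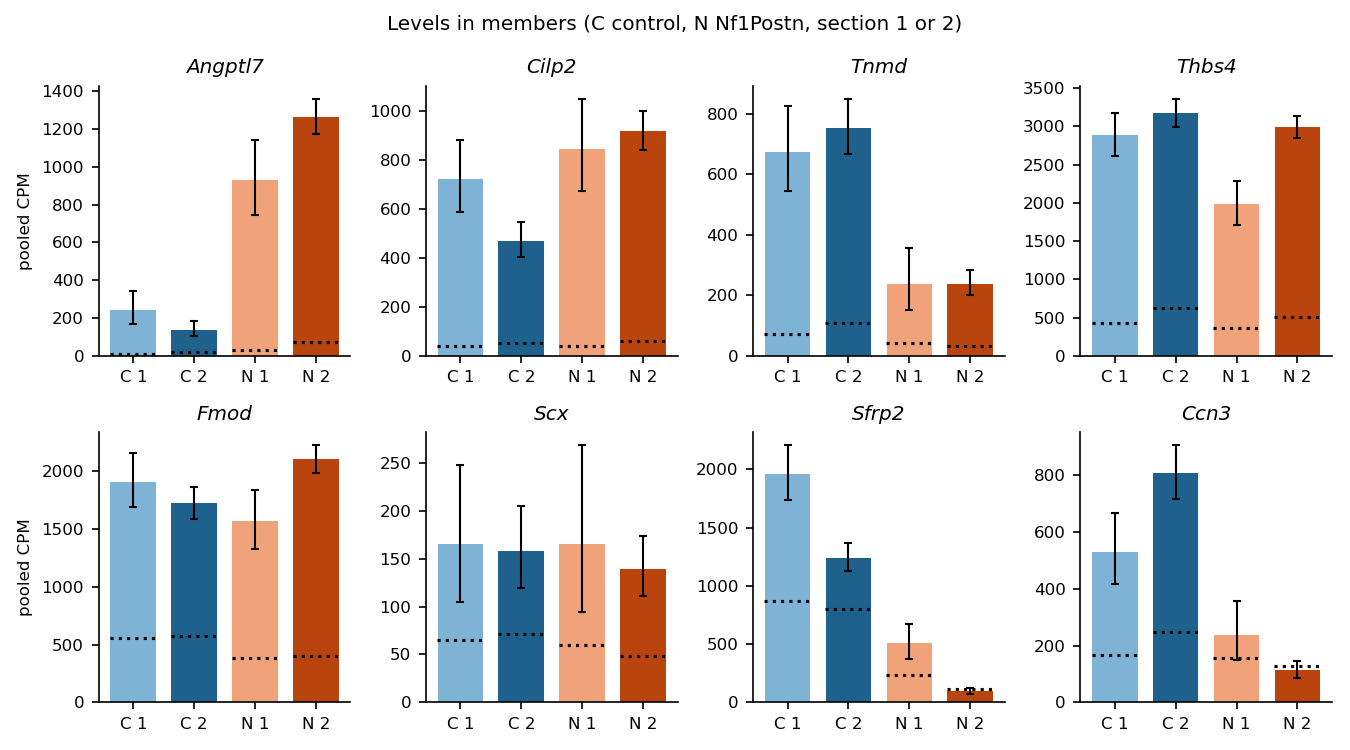
Pooled CPM in members of control (C, blue) and Nf1Postn (N, orange) calluses in sections 1 and 2, as bars from 0 with exact 95% Poisson intervals, and the level in the other spots as a dotted line. Angptl7 is high in Nf1Postn and Tnmd, Sfrp2 and Ccn3 in control, while the intervals of Scx overlap in all 4 bars.

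The 3 markers included, 724 genes had at least 50 UMIs in the members of each section, and 16 of them (2.21%) were at least 2-fold higher and 9 (1.24%) at least 2-fold lower in Nf1Postn than in control members in both sections. The median log2 ratio over the 724 was -0.22. The 16 were Angptl7, the globins Hbb-bs and Hba-a2, the muscle genes Ckm, Myh4, Myoz1, Cox6a2, Pgam2, Ank1, Aldoa, Atp2a1, Actn3 and Mybpc2 and the respiratory chain genes Atp5a1, Cyc1 and Ndufb6. Ckm, muscle creatine kinase, was at 3399 and 3312 CPM in control members and 8770 and 18844 CPM in Nf1Postn members, sections 1 and 2, and its log2 ratios of 1.37 and 2.51 were below those of the other spots (2.23 and 2.74). Hbb-bs, an adult globin, was at 57.4 and 108 CPM in control and 743 and 386 CPM in Nf1Postn members. In the 63 members with little muscle RNA, 4 of the 16 genes had enough UMIs (Ckm, Myh4, Atp2a1 and Atp5a1) and 0 were counted, but the first 3 belong to the list that set the limit, so their difference was removed by it. Angptl7 was not among the 4 and had log2 ratios of -1.31 and 2.96 there, in sections 1 and 2.

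The 9 lower genes were Sfrp2, C1qtnf3, Ccn3, Tnmd, Ptx3, Cdh11, Col11a1, B2m and Ly6e. Sfrp2 (chr3:83673628-83681624) was at 1958 CPM and 1243 CPM in control members and at 506 CPM and 95.9 CPM in Nf1Postn members, sections 1 and 2. The control lay above the Nf1Postn callus in both sections, with log2 ratios of -1.95 and -3.69, and the other spots had -1.87 and -2.76. Ccn3, a matricellular protein of mesenchymal cells (chr15:54609098-54617436), was at 531 and 807 CPM in control and 237 and 113 CPM in Nf1Postn members. Its ratios of -1.16 and -2.83 were further from 0 than those of the other spots, -0.10 and -0.94, the largest gap between members and other spots among the 9 genes in both sections. C1qtnf3, a secreted C1q/TNF family protein (chr15:10952418-10980237), was at 344 and 638 CPM in control and 155 and 80.2 CPM in Nf1Postn. Its log2 ratios were -1.15 and -2.99, and the other spots had -1.46 and -1.87. Cdh11, a cadherin of mesenchymal cells, had ratios of -1.09 and -1.54, and Ptx3, a pentraxin of inflamed matrix, -1.08 and -1.56. The other spots had -0.57 and -1.17 for Cdh11 and -0.97 and -1.65 for Ptx3. In the members with little muscle RNA, 5 of the 9 had enough UMIs. Sfrp2 was again counted, as was Tnmd, whose level chose the members. Ccn3 with -0.65 and -1.12, Col11a1 with -0.57 and -1.66 and B2m with -0.94 and -0.30 were not.

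Between genotypes, 0 of the 8 tested genes of the tendon matrix list passed the 2-fold rule in either direction, a count that the background shares of 2.21% and 1.24% would also give. Its summed log2 ratio was -0.33 in section 1 and -0.10 in section 2, where the other spots had -0.81 and -0.93. Thbs4 had ratios of -0.54 (-0.80 to -0.29) and -0.08 (-0.19 to 0.02), Fmod -0.28 (-0.58 to 0.01) and 0.29 (0.15 to 0.43), Chad -0.11 (-0.42 to 0.20) and 0.36 (0.19 to 0.52), and Comp -0.29 (-0.46 to -0.11) and -0.13 (-0.23 to -0.03). Mfap4 had -0.63 and -1.34 and Tnc -0.13 and -1.06. In the 63 members with little muscle RNA the ratios of sections 1 and 2 were -2.45 and -0.48 for Thbs4, -1.21 and -0.72 for Fmod and -2.27 and 0.18 for Chad. Scx had 0.00 (-1.02 to 0.98) and -0.18 (-0.69 to 0.34), so with so few UMIs a difference near the 2-fold rule lies within the interval of section 1. Among proteoglycans, Bgn had -0.80 and -1.92, Lum, lumican, 0.20 and -1.63, and Ogn, osteoglycin, -0.34 and -1.39, so section 2 was the lower for each. The other spots had -0.65 and -1.36 for Bgn, -0.57 and -1.03 for Lum and -0.45 and -1.05 for Ogn. Postn, whose promoter drives the Cre, had -0.51 and -2.28, and the summed injury response list -0.88 and -2.13. In the other spots Postn had -0.02 and -1.02 and the injury response list -0.72 and -1.45. Nf1 itself was at 64.5 and 74.9 CPM in control members and 31.0 and 52.3 CPM in Nf1Postn members from 69 UMIs in all, with intervals of the log2 ratio from -3.58 to 0.94 and from -1.32 to 0.29, so a loss of Nf1 was not detectable in these spots at this depth.

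**Figure D5:**
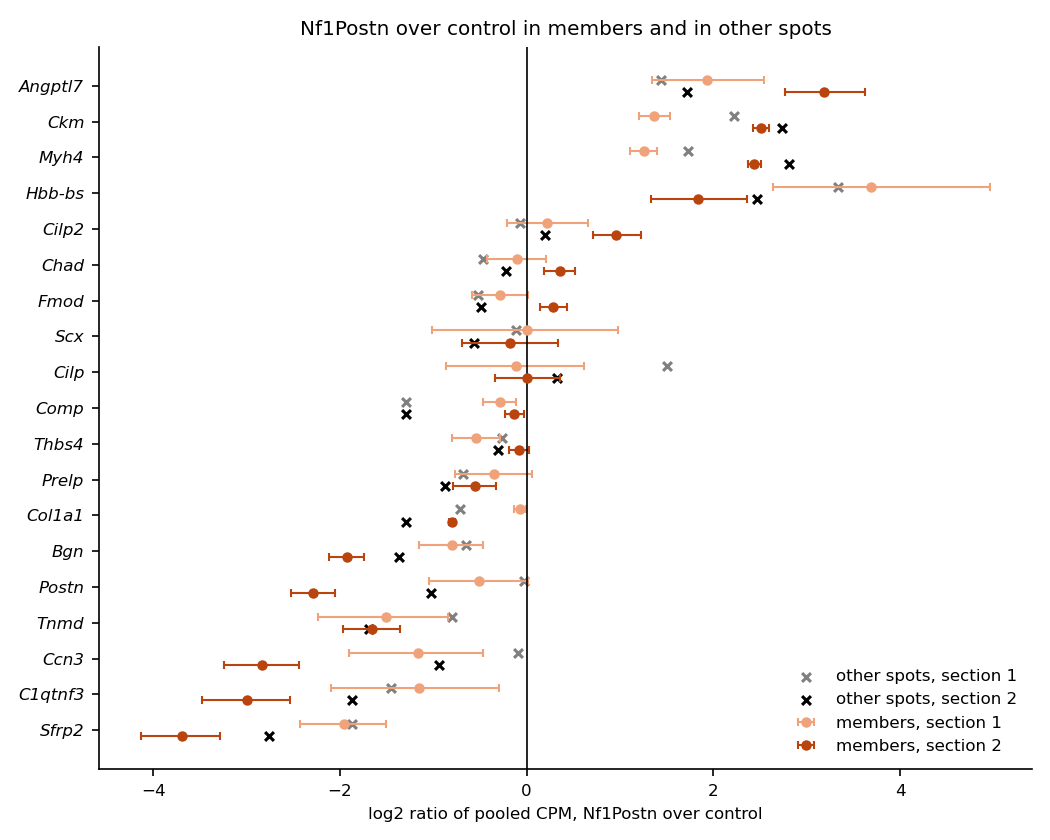
Log2 ratio of pooled CPM of Nf1Postn over control for 19 genes, in members (circles with exact 95% intervals, by section) and in the other spots (crosses). Ratios of Thbs4, Fmod, Chad, Scx and Comp in members lie between -0.54 and 0.36. Their intervals leave out 0 for Comp in both sections, for Thbs4 in section 1 and for Fmod and Chad in section 2, and those of Scx are wide. Angptl7 lies to the right and Sfrp2, C1qtnf3, Ccn3 and Tnmd to the left in both sections.

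The count of genes that differed between genotypes moved with the choice of members and of sections. With at least 3 marker UMIs required in a member, 2 genes were higher and 14 lower, and in section 2 alone 299 were higher and 298 lower. Members had 96917 UMIs in section 1 of the Nf1Postn callus and 573222 in section 2, against 139434 and 360536 in control, and section 1 alone gave 19 higher and 25 lower.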

How the data were processed

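Visium spatial transcriptomes for fixed tissue of 2 sections were used. For each section the authors deposited UMIs for every gene in every spot that were not normalized, with the genotype and position of each spot. In the deposited estimated counts 9 genes hold values that are not whole, so the values were used as they are and no count model was run. Per the submitters' processing notes, Space Ranger 1.3.0 and mm39 were used. An entry that names no gene was left out (6.81e-05% and 3.76e-05% of UMIs in sections 1 and 2). All sample columns were mapped, and 5 spots that carry no genotype were in no comparison of genotypes. The 2711 spot barcodes found in both sections name positions on the array and not shared cells.

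Counts were summed over the spots of each callus and section and divided by their total. Genes with at least 100 UMIs in members (members against other spots) or 50 UMIs in each section (genotypes) were tested, where tested means that the 2-fold rule was applied. A group at 0 was given 3 counts. Intervals were exact Poisson or Clopper-Pearson 95% intervals. Named genes were those of 26 hand-written lists of tissue markers (181 of 183 genes in the tables), the 20 highest and 10 lowest in members, the 10 largest each way between genotypes and 8 per leading marker (some of them not reported here), among counted genes or those with at least 100 UMIs; the other genotype genes were named after their values were seen, as were examples from lists. The members and lists were chosen with earlier results of these data known. The counting was tested on simulated data. Alternatives changed the limits, number and markers of members, depth, normalization and sections. Python 3.11.15, numpy 2.4.6, scipy 1.17.1 and pandas 2.3.3 were used.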

Additional observations from a re-analysis of the deposited data

Results flagged for a closer look

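In some lists and genes the log2 ratio of members over other spots lay above 0 in both sections of one genotype and below 0 in both of the other. The differences below are Nf1Postn minus control on the log2 scale, means over the sections, and were not tested. The difference was 0.53 for the fibrous collagens, 0.56 for the collagen crosslinking enzymes, -0.42 for the injury response list and -0.67 for the skeletal muscle list. Among single muscle genes it was -0.67 for Actn3, -0.69 for Mybpc2, -0.43 for Myh4, -0.67 for Myoz1 and -0.52 for Pgam2. It was -1.19 for Hba-a2 and -0.46 for Ly6e.

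Among spots left out of the comparisons, 2 spots over the Col2a1 limit had a summed marker CPM as high as the lowest member. Both lay in the control callus and held 4 UMIs of Tnmd and 1 each of Angptl7 and Cilp2, with 89756 CPM of Col2a1.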

How the results depend on the processing

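With 1 mouse per genotype no result has a test, and a value was called moved where it left its interval or changed by more than the SD between sections, and a count where it changed by more than 1.5 times. The share of members in Nf1Postn was 65.3% with at least 2000 UMIs per spot, 92.0% for 150 members, 65.4% for 600, 69.3% with at least 3 marker UMIs, 61.3% without Angptl7 in the ranking, 83.6% without Tnmd and 67.2% after thinning to 1000 UMIs, and 65.4% to 80.5% with a section left out. The share of neighbors that are members was 43.8% with at least 2000 UMIs, 55.7% for 150 and 42.0% for 600 members, 34.6% without Angptl7, 43.8% without Cilp2 and 35.2% after thinning, and 33.2% to 52.2% with a section left out. Genes higher in members numbered 25 for 150 members, counted in the Nf1Postn callus alone because the control held too few members, 1796 with no minimum of UMIs per gene and 4 with the minimum set at the level of the other spots. Genes lower in members numbered 1 for 150 members and with no minimum, 1 (Mmp9) with little muscle RNA on both sides, 6 with the mean of log2(CPM + 1) over spots and 14 in members with little muscle RNA against all other spots. The settings on muscle RNA and on the level of the other spots were chosen after seeing the data. With a section left out, the rules were applied to the remaining section only, which is looser, so those counts of genes are not like the main ones. The log2 ratio of the tendon matrix list, 1.43 by the median of the 4 callus sections, was 1.07 with at least 2000 UMIs, 1.14 without the Col2a1 limit, 2.25 for 150 and 1.01 for 600 members, 1.21 without Angptl7, 1.19 without Cilp2, 1.10 after thinning, 1.5001 with the mean of logs 1.26 with TMM factors and 1.34 with little muscle RNA on both sides, and 1.43 to 1.501 with a section left out. Genes higher in Nf1Postn members numbered 1 with at least 2000 UMIs, 84 for 600 members, 2 with at least 3 marker UMIs, 42 without Cilp2, 41 without Tnmd, 33 after thinning, 133 with no minimum per gene, 9 relative to the ratio in other spots, 1 in members with little muscle RNA and 19 to 299 with a section left out. Genes lower in Nf1Postn members numbered 20 with at least 2000 UMIs, 65 for 600 members, 14 with at least 3 marker UMIs, 21 without Angptl7, 35 without Cilp2, 28 after thinning, 517 with the mean of logs, 197 with no minimum per gene, 3 relative to the ratio in other spots, 3 in members with little muscle RNA and 25 to 298 with a section left out. The list's ratio of Nf1Postn over control members, a mean of -0.21, was -0.024 with at least 3 marker UMIs, -0.0037 without Angptl7, -0.48 without Tnmd, 0.18 after thinning, 0.66 relative to other spots and -0.39 with little muscle RNA, so its sign is not settled. Relative to the ratio in other spots, Ckm turned to -0.55 and Hbb-bs to -0.14. Under that setting Sfrp2 moved from -2.82 to -0.51 and C1qtnf3 from -2.07 to -0.41, while Ccn3 was at -1.48 and not moved. With the mean of logs, Sfrp2 was at -5.26, C1qtnf3 at -4.04 and Ccn3 at -5.12. The cause of these shifts was not tested. The sign was the same in 15 of 15 alternatives for Chad, Thbs4, Fmod, Prelp, Aff3, Myoc, Scx and Comp in members over other spots (Comp moved from 1.15 to 0.34 without the Col2a1 limit) and in 14 of 14 for Sfrp2, C1qtnf3 and Ccn3 between genotypes. For 150 members no comparison of genotypes was made, and the ratios of members over other spots came from the Nf1Postn callus alone. No paired analysis was possible because each genotype is read as 1 mouse and no test was run; the ratios between genotypes were taken within each section.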

Other observations

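The lowest and the highest of the 299 members with a genotype had 371 and 40382 CPM of the tendon and ligament matrix list, a wide spread within the members. For the synovium and tendon sheath list, 46 members (15.4%) exceeded the 90th percentile of the other spots of their callus and section. By callus section the share was 25.9% (11.1% to 46.3%) and 14.0% (5.30% to 27.9%) in control sections 1 and 2 and 11.8% (4.44% to 23.9%) and 15.2% (10.2% to 21.3%) in Nf1Postn sections 1 and 2. For nerve genes it was 29 members (9.70%).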
